A study of Mus musculus with 9 samples.

Results

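*Klrk1*, *Klrd1*, *Klrc1*, *Klrc2*, *Klre1* and *Klrb1c* encode lectin-like receptors of natural killer (NK) cells outside the Ly49 family, and they are described here in thymic invariant natural killer T (iNKT) cells. These 6 genes were taken by symbol from an expression table of 21883 genes, and each symbol matched 1 row. RNA had been sequenced from 9 libraries of sorted thymic iNKT cells, with 3 libraries for each of 3 groups, namely WT cells of stage 2, WT cells of stage 3, and stage 2 cells that lack Med23, a subunit of the Mediator complex. The cells came from C57BL/6 mice, and the WT animals were 6 weeks old, whereas the age of the *Med23*-deficient animals is not given in the labels. *Med23*-deficient mice carried floxed *Med23* alleles and *Cd4*-*Cre*, which deletes the gene in thymocytes by the CD4+CD8+ stage, so conventional T cells of these animals lack Med23 as well. iNKT cells were recognised by CD1d tetramer loaded with PBS57 and TCRβ. Stage 2 was CD24lo CD44hi NK1.1lo, and stage 3 was CD24lo CD44hi NK1.1hi. NK1.1 is the product of *Klrb1c*, so any difference of *Klrb1c* that involves stage 3 was set by the sort and is given only as a description.

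iNKT cells are T cells with a semi-invariant receptor for glycolipids on CD1d, and they acquire NK cell receptors as they mature. CD94 (*Klrd1*) pairs on the cell surface with NKG2A (*Klrc1*), which carries an inhibitory motif, or with NKG2C or NKG2E (*Klrc2*, *Klrc3*), which signal through the adaptor DAP12 (*Tyrobp*), and these pairs bind the non-classical MHC molecule Qa-1 (*H2-T23*). NKG2D (*Klrk1*) is an activating receptor for stress-induced ligands and signals through DAP10 (*Hcst*) or DAP12. *Klre1* encodes a partner chain of the *Klri1* and *Klri2* products, and NK1.1 (*Klrb1c*) is an activating NKR-P1 receptor that uses the Fc receptor gamma chain (*Fcer1g*).

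All 6 genes lie in the NK gene complex on chromosome 6 (mm10). *Klrb1c* spans 128778485 to 128789215 on the minus strand. The others form a run of 101.1 kb that begins 788.7 kb from the end of *Klrb1c*. *Klre1* (129577905 to 129585827) and *Klrd1* (129591782 to 129598775) are on the plus strand. *Klrk1* (129610323 to 129623864), *Klrc2* (129647496 to 129660689) and *Klrc1* (129666015 to 129678973) are on the minus strand. The start of the coding sequence is shown for *Klrc1*, *Klrc2* and the neighbouring *Klrc3*, since reads from such near copies are hard to assign. The sequences are coding bases 1 to 90 of the GENCODE vM21 transcripts. Capitals mark bases of *Klrc1* that do not match *Klrc2*, bases of *Klrc2* that do not match *Klrc1*, and the base of *Klrc3* that does not match *Klrc2*.
*Klrc1*: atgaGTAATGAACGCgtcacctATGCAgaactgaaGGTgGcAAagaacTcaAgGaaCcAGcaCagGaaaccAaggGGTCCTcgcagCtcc
*Klrc2*: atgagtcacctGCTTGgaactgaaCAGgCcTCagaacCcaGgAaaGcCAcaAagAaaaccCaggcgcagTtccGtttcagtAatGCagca
*Klrc3*: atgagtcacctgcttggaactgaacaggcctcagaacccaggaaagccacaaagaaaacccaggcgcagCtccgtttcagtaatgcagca
Over the whole coding sequence *Klrc2* and *Klrc3* were identical at 95.3% of aligned bases, *Klrc1* and *Klrc2* at 83.1%, and *Klrc1* and *Klrc3* at 85.5%. Of all 50-base stretches of its transcripts, *Klrc1* shared 38.6% with another gene, *Klrc2* 16.3% and *Klrb1c* 17.0%, the last mostly with *Gm44511*, a gene model that overlaps it on the same strand. *Klre1* shared 0.308%, and *Klrk1* and *Klrd1* shared 0%. The values of the *Klrc* genes and of *Klrb1c* are therefore less certain than those of the other 3 genes, and sums over the copies are given below.

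Levels are FPKM, the number of sequenced fragments on a gene corrected for transcript length and for sequencing depth. Genes can thus be compared with each other within a library. Summed FPKM ran from 1287523 (WT stage 2 replicate 2) to 1593795 (*Med23*-deficient stage 2 replicate 2), so comparisons between libraries also depend on the scaling. The table holds no read counts, so sequencing depth is unknown and counting intervals cannot be given. Between 15584 and 17333 genes were above an FPKM of 0 in a library, and libraries correlated at 0.95 to 0.959 within groups and 0.931 to 0.954 between groups (Pearson, log2(FPKM + 1), across genes), with no library standing apart. The 10 T cell and iNKT markers summed to between 1085.89 and 1615.81 FPKM in every library. B cell markers, 3 of 6 measured, summed to no more than 0.97, and erythroid markers, 1 of 6 measured, to no more than 0.75. Myeloid and dendritic cell markers, 2 of 8 measured, came to no more than 1.24. The 7 markers of CD4+CD8+ thymocytes and CD8 T cells, all measured, came to 1.67 to 4.99. *Med23* itself was 5.51, 5.15 and 6.74 FPKM in WT stage 2 and 4.80, 3.6 and 3.92 in *Med23*-deficient stage 2 (log2 difference -0.41, limma adjusted p = 0.552). The deleted exons are not given in the sources used here, so a whole-gene FPKM does not check the deletion. Whether the 2 genotypes were prepared together is not stated either, and such a batch and the genotype cannot be told apart.

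The first comparison asked how the receptor genes differ between the stages of WT iNKT cell maturation. All 5 genes that were not part of the sort rose from WT stage 2 to WT stage 3, by 2.95 to 3.55 on the log2(FPKM + 1) scale, and no library of one stage overlapped with a library of the other. By contrast, 0.759% of the 20689 genes tested were higher and 0.914% lower at an adjusted p of at most 0.05, and 7.36% were higher without overlap. The median log2 difference of all genes tested was -0.01.

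*Klrk1*, the NKG2D gene, was 1.11, 1.56 and 1.69 FPKM in WT stage 2 and 17.46, 28.68 and 28.44 FPKM in WT stage 3. The means were 1.45 ± 0.304 and 24.9 ± 6.41 FPKM (SD, n = 3 each), 17.1-fold apart. Its log2 difference of 3.37 (standard error 0.23, 95% confidence interval 2.80 to 3.94, limma adjusted p = 0.00665) had the smallest adjusted p of the members.

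*Klrd1*, whose product CD94 is the shared chain of the NKG2 pairs, was 4.66, 11.04 and 12.76 FPKM in WT stage 2 and 78.03, 77.62 and 68.47 FPKM in WT stage 3. Among the 5 genes it had the highest mean at stage 2, with a range that overlapped that of *Klrc1*, and its means of 9.49 ± 4.27 and 74.7 ± 5.41 FPKM (SD, n = 3 each) were 7.88-fold apart. The log2 difference was 2.95 (standard error 0.34, 95% confidence interval 2.13 to 3.77, limma adjusted p = 0.023).

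The NKG2 partner genes also rose. *Klrc1*, for the inhibitory NKG2A, was 1.40, 4.80 and 1.55 FPKM in WT stage 2 and 41.28, 30.25 and 42.19 FPKM in WT stage 3, a log2 difference of 3.55 (standard error 0.37, 95% confidence interval 2.65 to 4.45, limma adjusted p = 0.0185). *Klrc2*, for the activating NKG2C, was 0.88, 0.79 and 0.46 FPKM and then 11.35, 18.48 and 23.06 FPKM, a log2 difference of 3.40 (standard error 0.29, 95% confidence interval 2.70 to 4.10, limma adjusted p = 0.0118). *Klrc3*, for NKG2E, had values of 0.48, 0 and 0.67 FPKM at the earlier stage and 4.99, 10.20 and 13.94 FPKM at the later one (log2 difference 2.89, limma adjusted p = 0.0383). The inhibitory and activating partners thus both rose, and with the 3 near copies summed into 1 gene the log2 difference was 3.86 (limma adjusted p = 0.00635).

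The balance of *Klrc1* to *Klrc2* did not differ detectably between the stages. The log2 ratio, with 1 FPKM added to each, was 0.35, 1.70 and 0.80 in WT stage 2 and 1.78, 0.68 and 0.84 in WT stage 3, so the groups overlapped. The difference was 0.15 (exact permutation test, 2-sided, p = 0.70, and 0.70 after Benjamini-Hochberg adjustment over the 3 comparisons), and with 3 libraries a group this test cannot give a p below 0.10. The direction was not stable, since the difference was -0.40 and -0.51 with pseudocounts of 0.1 and 0.01, -0.19 when WT stage 3 replicate 1 was left out and -0.15 when WT stage 2 replicate 1 was. Summed over *Klrc1*, *Klrc2* and *Klrc3*, the partners came to 0.592, 0.506 and 0.21 of the *Klrd1* FPKM in the 3 WT stage 2 libraries and to 0.738, 0.759 and 1.16 in the WT stage 3 libraries. This ratio was higher in each stage 3 library than in each stage 2 library, and it was not tested.

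In WT stage 2 *Klre1* was 0 in replicates 1 and 2 and 0.58 FPKM in replicate 3, compared with 9.83, 14.05 and 8.47 FPKM in WT stage 3, a log2 difference of 3.31 (standard error 0.30, 95% confidence interval 2.57 to 4.06, limma adjusted p = 0.0139). With a pseudocount of 0.01 in place of 1 the difference was 8.08 (limma adjusted p = 0.0562), and over the alternatives run the adjusted p lay between 0.00144 and 0.162. Of its partner genes, *Klri2*, whose product forms an activating pair with that of *Klre1*, went from 0.08, 0 and 0.07 FPKM in the WT stage 2 libraries to 6.26, 3.11 and 5.42 FPKM in those of stage 3 (log2 difference 2.46, limma adjusted p = 0.0238). *Klri1*, whose product forms the inhibitory pair, was 0 in all WT stage 2 libraries and 0, 1.66 and 0.38 FPKM in WT stage 3.

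*Klrb1c*, the sort marker, was 16.34, 26.24 and 7.65 FPKM in WT stage 2 and 95.09, 57.27 and 72.66 FPKM in WT stage 3, means of 16.7 ± 9.30 and 75 ± 19.0 FPKM (SD, n = 3 each). *Klrb1c* RNA was thus measured in every WT library of cells gated as NK1.1lo, and the part of NK1.1hi cells left in that sort was not tested. Between the genes, *Klrb1c* and *Klrd1* led in both stages with overlapping ranges. In WT stage 3 *Klrd1* lay above *Klrc1* and *Klrc1* above *Klrk1* without overlap, whereas *Klrk1* overlapped with *Klrc2* and *Klrc2* with *Klre1*. In WT stage 2 the only neighbours in the order that did not overlap were *Klrk1* and *Klrc2*.

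**Figure D1:**
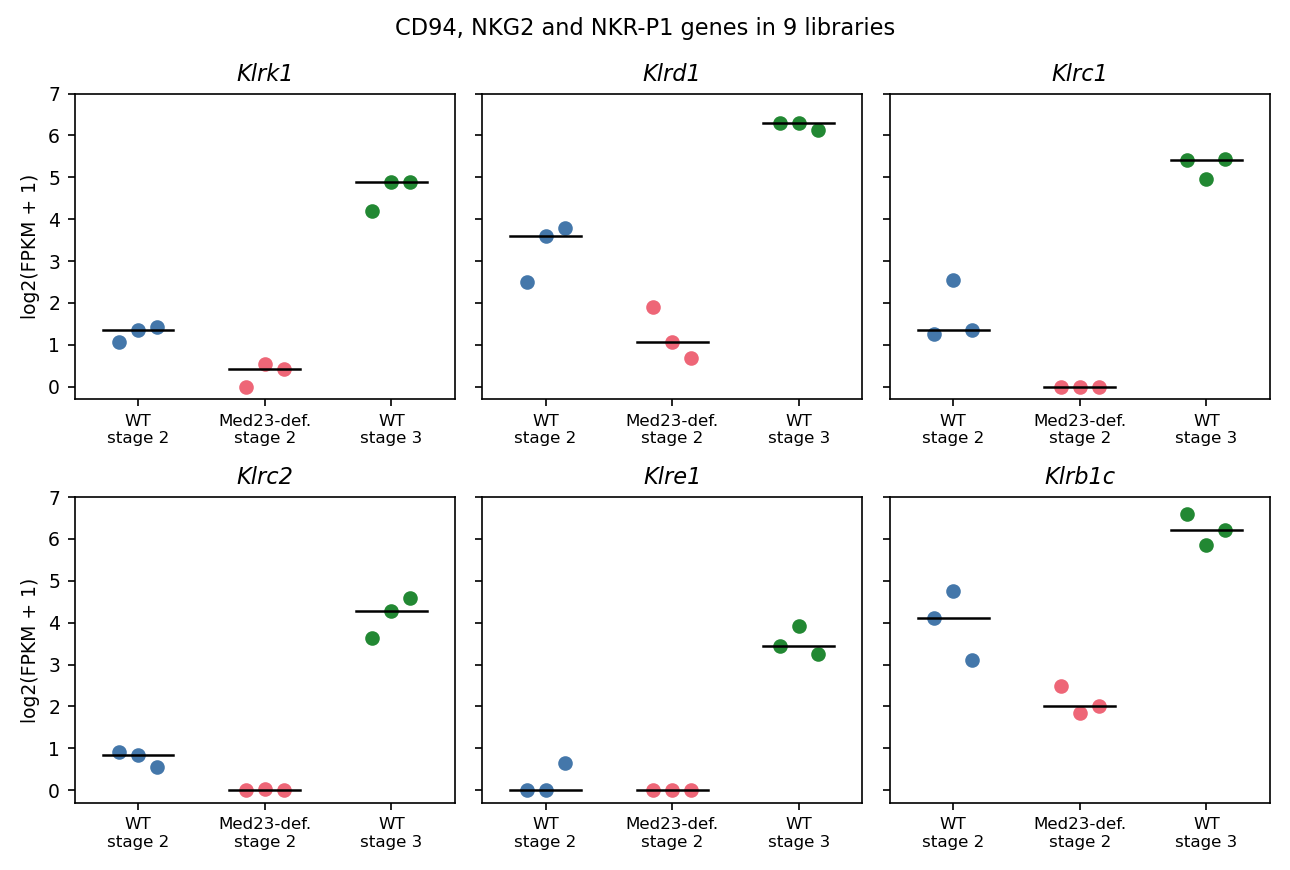
FPKM of the 6 receptor genes in the 9 libraries, on a log2(FPKM + 1) axis, with 1 point per library (replicates 1 to 3 from left to right) and a line at the group median (n = 3). Every WT stage 3 point lies above every stage 2 point of the same gene, and *Klrc1* and *Klre1* are at 0 in all 3 *Med23*-deficient libraries.

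The adjusted p of these increases depended on the model and on single libraries. By adjusted p 0 of the 5 genes passed in the Ballgown-style model, an ordinary linear model per gene, and *Klrk1* alone passed with a replicate block (0.0439, against 0.0924 to 0.108 for the others by limma). The count of 5 became 4 without WT stage 2 replicate 1 or replicate 2, 2 without WT stage 2 replicate 3 or WT stage 3 replicate 1, 1 when WT stage 3 replicate 2 was left out and 0 when WT stage 3 replicate 3 was left out, whereas all 5 genes were past the fold of 2 with an unadjusted p no higher than 0.05 in each of these fits (1.7% of all genes were higher by that rule with every library). The sum of NK cell markers moved with the stage, though not each marker did. The 6 markers that were measured summed to 10.65 to 11.77 FPKM in WT stage 2, 57.43 to 82.71 in WT stage 3 and 11.02 to 17.15 in *Med23*-deficient stage 2. *Gzma*, *Prf1* and *Cd160*, which iNKT cells can also express, passed an adjusted p of 0.05 as higher in WT stage 3. *Itga2* (log2 difference 0.525, limma adjusted p = 0.599) and both entries of *Itgam* (-0.09 and -0.14, limma adjusted p = 0.641 and 0.624) did not pass. *Eomes*, a defining factor of NK cells, was at 0 in 8 libraries and at 0.24 FPKM in WT stage 2 replicate 1. In RNA from sorted cells, more cells with a receptor and more RNA per cell cannot be told apart.

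The second comparison asked what the receptor genes were in *Med23*-deficient cells of the same stage. Of the 6 genes, 5 lay below every WT stage 2 library in every *Med23*-deficient library, where 8.37% of all 20674 genes tested were lower without overlap. None of the 6 passed an adjusted p of 0.05 (limma; 0.145% of all genes were lower by that rule), 5 had an unadjusted p of at most 0.05 (6.02% of all genes were lower and 3.56% higher by that rule), and *Klrd1*, *Klrc1* and *Klrb1c* were past the fold of 2 as well (1.32% of all genes). In the Ballgown-style model 2 of the 6 had an unadjusted p of at most 0.05, 0 reached the fold as well, and 0 passed the adjusted p.

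*Klrk1* was listed at 0, 0.46 and 0.33 FPKM in *Med23*-deficient stage 2, against 1.11 to 1.69 FPKM in WT stage 2, a log2 difference of -0.97 (standard error 0.22, 95% confidence interval -1.52 to -0.42, limma adjusted p = 0.211). *Klrd1* was 2.72, 1.08 and 0.61 FPKM, a mean of 1.47 ± 1.11 FPKM (SD, n = 3) that is 6.45-fold below WT stage 2, with a log2 difference of -2.08 (standard error 0.46, 95% confidence interval -3.21 to -0.95, limma adjusted p = 0.204). CD94 RNA was therefore still measured in every *Med23*-deficient library, unlike that of its partners.

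*Klrc1* was listed at 0 in all 3 *Med23*-deficient libraries, against 1.40, 4.80 and 1.55 FPKM in WT stage 2, so that no fold of FPKM can be given (limma adjusted p = 0.196). *Klrc2* was listed at 0, 0.02 and 0 FPKM, against 0.46 to 0.88 FPKM (log2 difference -0.76, standard error 0.12, 95% confidence interval -1.06 to -0.46, limma adjusted p = 0.0998). *Klrc3* was at 0 in all 3 libraries as well. Summed over the 3 copies, the partners came to 0, 0.02 and 0 FPKM in *Med23*-deficient stage 2 and 2.76, 5.59 and 2.68 FPKM in WT stage 2 (limma adjusted p = 0.0736). These low values leave the *Klrc1* to *Klrc2* ratio of *Med23*-deficient cells to the pseudocount. Its difference was -0.96 from WT stage 2 and -1.11 from WT stage 3 (exact permutation test, 2-sided, p = 0.10 each, the smallest possible, and 0.15 after adjustment), and nothing is read from it.

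*Klre1* was at 0 in all 3 *Med23*-deficient libraries and in 2 of the 3 WT stage 2 libraries, so the groups overlapped (limma adjusted p = 0.731). *Klrb1c* was 4.60, 2.61 and 3.04 FPKM, a mean of 3.42 ± 1.05 FPKM (SD, n = 3) that is 4.9-fold below WT stage 2 (log2 difference -1.88, standard error 0.43, 95% confidence interval -2.94 to -0.82, limma adjusted p = 0.21). Both groups had been sorted as NK1.1lo, so here the marker was not used to tell them apart. *Klrb1c* had the highest mean of the 6 in *Med23*-deficient cells, with a range that overlapped that of *Klrd1*. It made up 62.8%, 62.6% and 76.4% of the summed FPKM of the 6 genes there. In WT stage 2 it made up 67.0%, 59.1% and 31.0%, so the ranges of this share overlapped.

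The size of these differences was sensitive to the pseudocount, since the values are low. With 0.01 FPKM added in place of 1, the log2 difference was -3.62 for *Klrk1* and -5.59 for *Klrc2*. The adjusted p was missed by all 6 genes in every alternative that could be fitted (0.0634 was the smallest), which says nothing of stability, since few genes of any kind passed in this comparison. RNA of γ constant genes of the T cell receptor moved with the genotype: the 5 γδ T cell markers that were measured summed to 296.33 to 324.82 FPKM in WT stage 2, 259 to 299.38 in WT stage 3 and 8.7 to 9.11 in *Med23*-deficient stage 2, whereas *Trdc*, a defining marker, was no more than 0.38 FPKM in any library. The NK cell markers did not move one way between the genotypes at stage 2. *Prf1* was 0.43, 0.72 and 0.55 FPKM in *Med23*-deficient cells against 2.01 to 3.79 FPKM in WT, 4.59-fold lower by its means and without overlap, like 5 of the members (log2 difference -1.17, limma adjusted p = 0.23). *Itga2* was 4.22, 4.01 and 4.92 FPKM against 0.90 to 1.5 FPKM, higher without overlap (log2 difference 1.29, limma adjusted p = 0.132). The part of such cells in the receptor values was not tested.

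**Figure D2:**
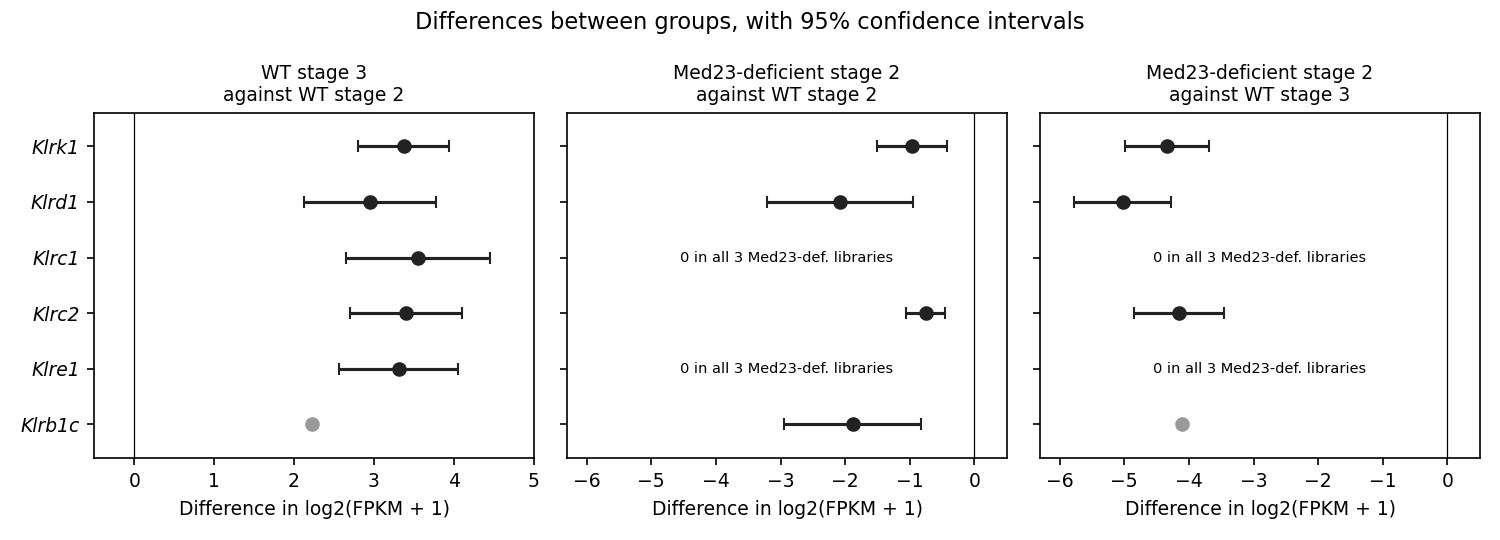
Differences in mean log2(FPKM + 1) between groups for the 6 receptor genes, with 95% confidence intervals from limma (n = 3 libraries a group). Grey points without intervals are *Klrb1c* where the sort set its difference, and genes at 0 in every *Med23*-deficient library are named without a value. The intervals lie above 0 for the 5 genes in the WT comparison and below 0 for the 4 genes drawn in the comparison of stage 2 cells.

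The third comparison set *Med23*-deficient stage 2 against WT stage 3, groups that differ in both genotype and stage and that were also used above. All 5 genes outside the sort fell (limma adjusted p between 0.000606 and 0.00517), where 0.628% of 20846 genes were lower and 0.705% higher at an adjusted p of 0.05. *Klrd1* was 50.8-fold lower by its means, with a log2 difference of -5.03 (standard error 0.31, 95% confidence interval -5.78 to -4.27, limma adjusted p = 0.00313). *Klrk1* differed by -4.34 (limma adjusted p = 0.00313) and *Klrc2* by -4.16 (limma adjusted p = 0.00501), or by -7.70 and -10.2 with a pseudocount of 0.01. *Klrc1* and *Klre1*, at 0 in *Med23*-deficient cells, were between 30.25 and 42.19 and between 8.47 and 14.05 FPKM in WT stage 3. The count of 5 was the same without any single library, and it was 0 in the Ballgown-style model.

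Other lectin-like receptor genes of the same complex were followed as a list of 16, of which 10 were measured. From WT stage 2 to WT stage 3, *Klrc3*, *Klri2* and *Klrb1f* rose, none fell, and the median log2 difference was 1.06. *Klrb1f*, an NKR-P1 gene whose product binds Clr-g (*Clec2i*), was 0.21, 0 and 0.97 FPKM at WT stage 2 against 4.12, 6.01 and 5.82 FPKM at WT stage 3 (log2 difference 2.23, limma adjusted p = 0.042). Its adjusted p missed 0.05 in 11 of 16 alternatives, and those of *Klrc3* and *Klri2* in 10 and 7. None of 9 passed in *Med23*-deficient against WT stage 2 cells by adjusted p (limma), 3 had an unadjusted p of at most 0.05, all lower, and the median was -0.07. *Klrc3*, *Klri2*, *Klrb1b* and *Clec2d* were the 4 of 10 that passed as lower in *Med23*-deficient stage 2 than in WT stage 3, and 7, 7, 11 and 8 of 16 alternatives missed these calls.

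*Klrb1a*, another NKR-P1 gene, was 1.5, 4.40 and 1.15 FPKM in WT stage 2, 0, 1.49 and 0.62 FPKM in WT stage 3 and 0 in all *Med23*-deficient libraries. Its log2 difference between the WT stages was -0.95 (95% confidence interval -2.16 to 0.26, limma adjusted p = 0.49), with overlapping groups. Between the genotypes at stage 2 the groups did not overlap, as for 5 of the 6 members (limma unadjusted p = 0.00447, adjusted p = 0.206, no fold since one group is at 0). *Clec2d*, for the Clr-b ligand of another NKR-P1 receptor, was 141.27, 126.17 and 113.45 FPKM in WT stage 2, 65.74, 59.95 and 74.57 FPKM in *Med23*-deficient stage 2 and 210.78, 130.51 and 176.68 FPKM in WT stage 3. It was lower in *Med23*-deficient stage 2 than in WT stage 3 by -1.34 on the log2 scale (limma adjusted p = 0.0391), and against WT stage 2 its difference was -0.92 (limma adjusted p = 0.067).

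**Figure D3:**
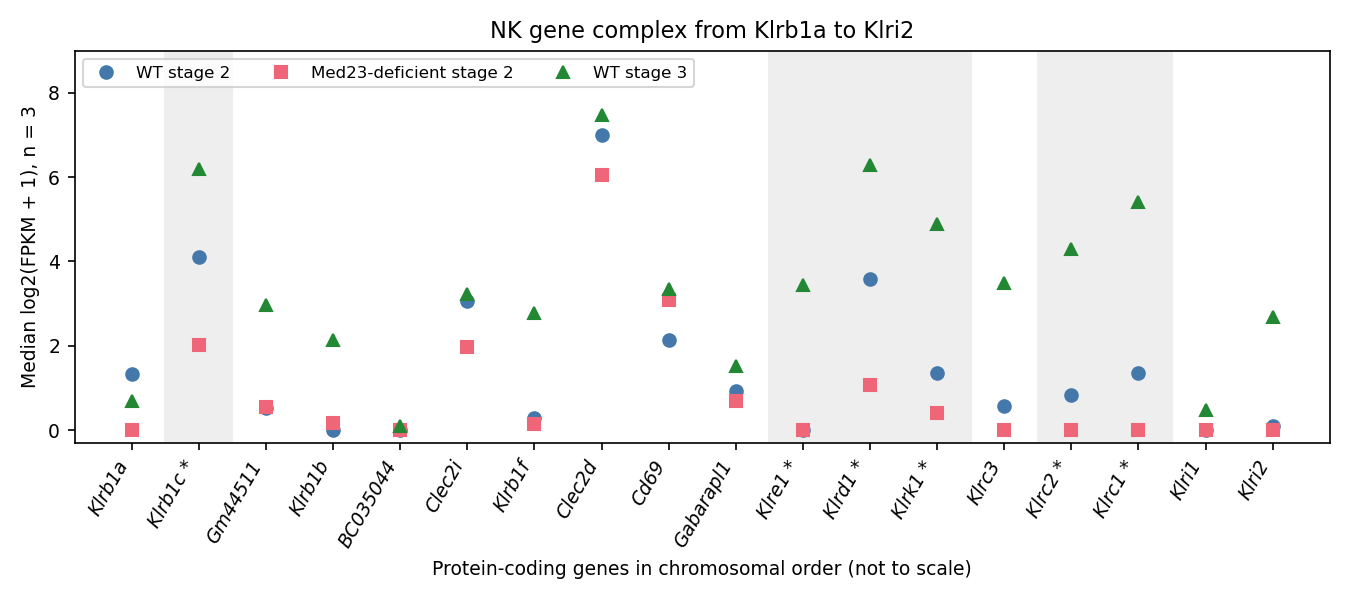
Median log2(FPKM + 1) of the 18 protein-coding genes from *Klrb1a* to *Klri2* in each group (n = 3 libraries), in chromosomal order and not to scale. Shaded columns and asterisks mark the 6 receptor genes. Every gene drawn except *Klrb1a*, the 6 receptor genes and their neighbours alike, has its highest median in WT stage 3. *Clec2d* is the gene with the highest median in each group.

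Over the stretch of chromosome 6 from *Klrb1a* to *Klri2* (128609227 to 129740484, mm10), 18 protein-coding genes were measured, 12 of them besides the 6. Of these 12, 4 passed an adjusted p of 0.05 as higher in WT stage 3 than in WT stage 2 and 0 as lower, and 5 passed as lower in *Med23*-deficient stage 2 than in WT stage 3. None of 11 passed between the genotypes at stage 2. One of the 4 and of the 5 was *Gm44511*, which shares transcript sequence with *Klrb1c*, and with both summed the log2 difference of *Klrb1c* between the genotypes at stage 2 was -1.82 (limma adjusted p = 0.21).

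*Hcst*, *Tyrobp* and *Fcer1g*, the adaptor genes of these receptors, were each higher in every WT stage 3 library than in any WT stage 2 library, and *Fcer1g* passed the adjusted p. Of all 21 adaptors and signalling partners measured, most of them general kinases and signalling genes, *Fcer1g* and *Pik3cd* rose from WT stage 2 to WT stage 3, and 0 passed as lower. By unadjusted p, 6 were higher and 3 lower, and the median log2 difference was 0.00. *Pik3cd* missed the adjusted p in 9 of 16 alternatives, including each fit with 1 library left out, and *Fcer1g* in 5. *Cd247*, for the ζ chain of the T cell receptor complex, was 27.74, 30.48 and 29.59 FPKM in WT stage 2 and 17.78, 18.37 and 11.97 FPKM in WT stage 3 (log2 difference -0.85, limma adjusted p = 0.085). *Fcer1g*, for the gamma chain that NK1.1 signals through, was 0.30, 0 and 1.48 FPKM in WT stage 2, 3.80, 1.24 and 2.23 FPKM in *Med23*-deficient stage 2 and 38.78, 41.29 and 30.50 FPKM in WT stage 3. It rose by 4.67 on the log2 scale between the WT stages (standard error 0.35, limma adjusted p = 0.00843) and was lower by -3.53 in *Med23*-deficient stage 2 than in WT stage 3 (limma adjusted p = 0.00844). Between the genotypes at stage 2 its log2 difference was 1.14 (limma adjusted p = 0.499), with *Klrb1c* pointing the other way, and the ranges overlapped.

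*Hcst*, for the DAP10 adaptor of NKG2D, was measured at 18.57 to 45.94 FPKM in all 9 libraries. Between the WT stages its log2 difference was 0.47 (95% confidence interval 0.06 to 0.88, limma adjusted p = 0.301), an interval that ends below that of *Klrk1*. *Tyrobp*, for the DAP12 adaptor of the activating CD94 pairs, was at 0 in all 6 stage 2 libraries and 1.15, 5.78 and 2.14 FPKM in WT stage 3 (limma adjusted p = 0.123 against WT stage 2). In WT stage 2, *Klrc2* RNA was thus measured in libraries where *Tyrobp* was listed at 0. Of 3 inhibitory phosphatase genes none passed in any comparison by adjusted p (limma), and *Inpp5d* alone had an unadjusted p of at most 0.05, as higher in *Med23*-deficient stage 2 than in either WT group (5.32% of all genes were higher by that rule against WT stage 3).

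**Figure D4:**
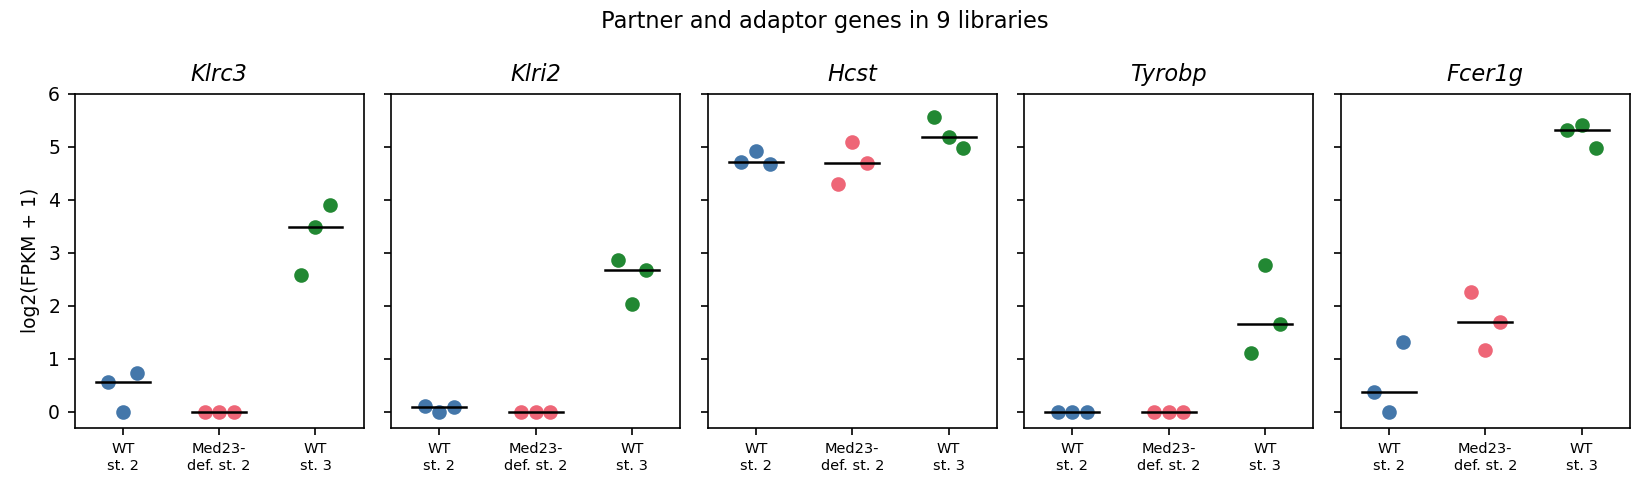
Partner genes (*Klrc3*, *Klri2*) and adaptor genes (*Hcst*, *Tyrobp*, *Fcer1g*) in the 9 libraries, on a log2(FPKM + 1) axis, with 1 point per library and a line at the group median (n = 3). *Hcst* is between 18.57 and 45.94 FPKM in every library, whereas *Fcer1g* is 30.50 to 41.29 FPKM in WT stage 3 and no more than 3.80 FPKM in any stage 2 library.

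The ligands that could meet these receptors on neighbouring iNKT cells were measured in the same RNA. *H2-T23*, which encodes the Qa-1 ligand of the CD94 pairs, was 28.65 to 38.48 FPKM in all libraries, with a log2 difference of -0.04 between the WT stages (95% confidence interval -0.40 to 0.32, limma adjusted p = 0.919). Of 18 ligand and antigen presentation genes 11 were measured, and *H2-K1* was the 1 gene of 10 tested to pass as higher in WT stage 3 than in WT stage 2 (missed in 9 of 16 alternatives, including each fit with 1 library left out), with *Clec2d* the 1 of 11 to pass as lower in *Med23*-deficient stage 2 than in WT stage 3. Of the NKG2D ligands, *Raet1e* was at 0.06 FPKM in 1 *Med23*-deficient library and 0 elsewhere, and *H60b* (0.19 to 3.78 FPKM) and *Ulbp1* (2.51 to 4.84 FPKM) were measured in every library.

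Of 27 factors known to act on NK receptor genes, *Runx3*, *Il2rb*, *Jund* and *Zfp683* rose and *Tcf7* and *Bcl11b* fell from WT stage 2 to WT stage 3, and the median log2 difference was 0.07. *Runx3*, a RUNX factor of cytotoxic lymphocytes, was 37.47, 50.10 and 38.78 FPKM in WT stage 2, 48.79, 55.91 and 56.14 FPKM in *Med23*-deficient stage 2 and 76.09, 75.75 and 79.08 FPKM in WT stage 3 (log2 difference between the WT stages 0.87, standard error 0.12, limma adjusted p = 0.0399). Each of these 6 calls was lost in the Ballgown-style model and with the replicate block. Out of 16 alternatives the adjusted p was missed in 9 by *Jund*, in 8 by *Bcl11b* and *Runx3*, in 7 by *Il2rb* and in 4 by *Tcf7* and *Zfp683*, and *Jund* and *Bcl11b* missed it whenever 1 library was left out. *Il2rb*, the β chain of the IL-2 and IL-15 receptors, rose by 1.36 (limma adjusted p = 0.0171) and overlapped between the genotypes at stage 2, at 103.45 to 133.84 FPKM in WT and 95.65 to 153.61 FPKM in *Med23*-deficient cells. None of the 27 passed an adjusted p of 0.05 between the genotypes at stage 2 (limma), and 8 had an unadjusted p of at most 0.05, 5 higher and 3 lower. *Gata3* and *Tcf7* were higher and *Id2* and *Il2rb* lower in *Med23*-deficient stage 2 than in WT stage 3, calls that 7, 6, 8 and 12 of 16 alternatives missed.

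Short sequence motifs of some of these factor families were looked for in the 250 bases before the RefSeq start of each gene. For *Klrc2*, *Klre1* and *Klrb1c* this start lies inside the gene span given above. The windows of *Klre1* and *Klrb1c* therefore lie within that span, and those of *Klrc2* overlap it. The promoter table of RefSeq (GRCm38.p6) matched 5 of the 6 genes, in 7 windows, and *Klrd1* was not matched. The windows below are 1 per gene, 5′ to 3′ on the gene's strand, at chr6:129623865-129624114 (*Klrk1*), chr6:129678974-129679223 (*Klrc1*), chr6:129660557-129660806 (*Klrc2*), chr6:129577963-129578212 (*Klre1*) and chr6:128788642-128788891 (*Klrb1c*). Capitals mark the RUNX letters TGTGGT, on either strand, and in *Klrb1c* also the ETS letters GGAAGT.
*Klrk1*: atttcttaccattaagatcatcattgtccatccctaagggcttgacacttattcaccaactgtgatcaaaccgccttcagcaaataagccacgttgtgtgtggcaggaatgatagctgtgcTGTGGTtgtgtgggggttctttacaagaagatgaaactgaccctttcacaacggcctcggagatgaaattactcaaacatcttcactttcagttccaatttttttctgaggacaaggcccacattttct
*Klrc1*: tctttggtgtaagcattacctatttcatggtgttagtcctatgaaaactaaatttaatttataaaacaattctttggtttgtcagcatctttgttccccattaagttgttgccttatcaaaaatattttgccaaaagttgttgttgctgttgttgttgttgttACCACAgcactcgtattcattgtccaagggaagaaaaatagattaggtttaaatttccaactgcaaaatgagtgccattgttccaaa
*Klrc2*: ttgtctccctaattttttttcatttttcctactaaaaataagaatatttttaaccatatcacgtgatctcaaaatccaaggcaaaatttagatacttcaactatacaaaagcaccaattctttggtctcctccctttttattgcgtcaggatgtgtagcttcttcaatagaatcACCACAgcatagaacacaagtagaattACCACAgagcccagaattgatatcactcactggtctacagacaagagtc
*Klre1*: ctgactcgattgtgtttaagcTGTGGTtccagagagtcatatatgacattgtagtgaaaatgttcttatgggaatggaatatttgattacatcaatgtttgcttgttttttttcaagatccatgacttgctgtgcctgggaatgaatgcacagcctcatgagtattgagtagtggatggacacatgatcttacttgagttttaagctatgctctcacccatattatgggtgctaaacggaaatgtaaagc
*Klrb1c*: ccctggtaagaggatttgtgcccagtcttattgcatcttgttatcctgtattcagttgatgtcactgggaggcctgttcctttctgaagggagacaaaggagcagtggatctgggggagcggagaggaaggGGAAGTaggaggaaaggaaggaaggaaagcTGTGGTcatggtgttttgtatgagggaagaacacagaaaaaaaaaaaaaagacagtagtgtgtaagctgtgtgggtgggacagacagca
The letters TGTGGT were in 6 of the 7 windows, at least 1 for each of the 5 genes, and in 14.0% of all 32851 promoter windows of the same length. They begin 129 bases before the RefSeq start of *Klrk1*, 87 before that of *Klrc1*, and 76 and 49 before that of *Klrc2* in the window shown. For *Klre1* they begin 229 bases before it in the window shown, and for *Klrb1c* 89 bases. The ETS letters GGAAGT were in 1 of the 7 windows (19.7% of all windows), and neither the AP-1 letters TGANTCA (6.75%) nor the T-box letters GGTGTGA (3.33%) were in any of them. No motif overlapped with another in these windows, both windows of *Klrc2* overlap, and a match of letters is not evidence that a factor binds there.

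The genes most like each member were sought among genes whose FPKM averaged 1 or more, by Pearson correlation of log2(FPKM + 1) over the 9 libraries. These libraries fall into 3 groups, so the measure mostly reflects the order of the groups, and it is given with no test. *Klrk1* was most like *Gzmb* (0.9937), *Styk1* (0.9912) and *Tcrg-V5* (0.9868), and *Klrc2* was most like *Gzmb* (0.9885), *Styk1* (0.9884) and *Klra10* (0.9862). *Klrc1* was most like *Prf1* (0.9985), *Tcrg-V5* (0.9796) and *Styk1* (0.9794), and *Klrd1* was most like *Tcrg-V5* (0.969), *Prf1* (0.9678) and *Klra9* (0.9677). *Styk1* and *Tcrg-V5* were thus each among the nearest genes of 3 members. *Prf1*, which encodes perforin, was 2.01, 3.79 and 2.01 FPKM in WT stage 2, 0.43, 0.72 and 0.55 FPKM in *Med23*-deficient stage 2 and 17.06, 14.72 and 17.52 FPKM in WT stage 3. Like *Klrc1*, it was higher in WT stage 2 replicate 2 than in the other WT stage 2 libraries. *Klre1* was most like *Gzma* (0.9904), *Ncr3-ps* (0.9901) and *Cd244* (0.9872), each of which was at 0 in at least 4 of the 6 stage 2 libraries. *Klrb1c* had other neighbours, *Ly6c2* (0.9836), *Entpd1* (0.9769) and *Mical2* (0.9739).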

How the data were processed

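RNA of 9 libraries of sorted thymic iNKT cells was measured, 3 per group as given by the labels. According to the study's methods, stranded total RNA libraries were trimmed with Trimmomatic 0.36 and aligned to mm10 with HISAT2. Reads hitting up to 2 loci were used by StringTie to quantify GENCODE vM12 genes, so a read of near copies can count for either. Whether strand was used in counting is not stated. The authors deposited FPKM, rounded to 2 decimals, in 1 table of 21883 genes without authors' comparisons.

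For each comparison log2(FPKM + 1) was tested with limma 3.58.1 in R 4.3.3 (mean-variance trend, 6 libraries, genes above 0 in at least 1 of them), with Benjamini-Hochberg adjustment over all genes tested and a threshold of 0.05. The thresholds of the study, a fold of at least 2 and a p of at most 0.05, were counted too, with the fold taken from the log2 difference. Fold changes on this scale understate the change of low genes. The fit was tested on simulated data. Nothing in the labels says that libraries came from separate mice, so p-values measure only the spread between libraries. The members and gene lists were chosen with earlier results of these data known.

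Named genes were the 6 members, listed genes that passed the adjusted p or share a pair, adaptor or ligand with a member, and the 3 genes most like each member, leaving out models named Gm or Rik. *Gm44511*, *Klrb1a*, *Inpp5d*, *Cd247*, *Itga2*, *Itgam*, *Trdc* and *Eomes* were named after their values were seen. Shared sequence was read from GENCODE vM21 transcripts, motifs from RefSeq promoters, and pairwise alignments were made with Biopython 1.88. The alternatives used pseudocounts of 0.1 and 0.01, a filter that kept genes averaging 1 FPKM or more, scaling to TPM, to a common upper quartile or by quantiles, no trend, a Ballgown-style linear model, all 9 libraries, a replicate block and each library left out. Summing near copies was added after seeing the data.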

Additional observations from a re-analysis of the deposited data

How the results depend on the processing

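The direction of each member's difference was the same in every alternative that could be fitted, in all 3 comparisons. Where groups do not overlap, neither another pseudocount nor leaving a library out can turn the direction, so those fits do not test it. For *Klre1* between the genotypes at stage 2, the direction rests on 0.58 FPKM in WT stage 2 replicate 3. Only 14 alternatives could be fitted for it there, and none without that library. The number of members past an adjusted p of 0.05 in WT stage 3 against WT stage 2, 5 of 5, was 4 or 5 under the other pseudocounts, filters and scalings. It was 0 in the Ballgown-style model, 1 with a replicate block, and 0 to 4 with 1 library left out. In *Med23*-deficient stage 2 against WT stage 3 it was 0 of 5 in the Ballgown-style model, 4 with the replicate block and 5 with any library left out. In *Med23*-deficient against WT stage 2 it was 0 of 6 throughout, replicate block included. The 3 members past the fold and unadjusted p became 5 with a pseudocount of 0.1, 5 with 0.01 and 0 in the Ballgown-style model. Of all 20674 genes tested, 272 were lower by that rule in the main fit. With these pseudocounts 540 and 532 were lower, and in the Ballgown-style model 185, so the smaller pseudocounts passed more genes of any kind. Same-numbered libraries deviated together with correlations of 0.004 to 0.272, all positive and highest for replicate 3 in each comparison. The deviations of differently numbered libraries were not compared, so these values do not decide whether same-numbered libraries were prepared together. The numbers were not taken as pairs in the main fit, and the replicate block is the alternative that uses them. The log2 ratio of *Klrc1* to *Klrc2* between the WT stages turned from 0.15 to -0.40 and -0.51 with pseudocounts of 0.1 and 0.01, and lay between -0.19 and 0.52 with 1 library left out. In *Med23*-deficient stage 2 it was -1.63 and -2.19 with these pseudocounts and -1.26 to -0.59 with 1 library left out against WT stage 2, and -1.23, -1.68 and -1.32 to -0.77 against WT stage 3. Over all genes, calls by adjusted p, 157 higher and 189 lower between the WT stages, were 4 and 1 in the Ballgown-style model, 15 and 4 with the block, 244 and 356 with all 9 libraries in 1 fit, and 86 and 138 on the TPM scale. Between the genotypes at stage 2 they were 14 and 30, against 1 and 0, 0 and 0, and 52 and 110 in the same order, 48 and 95 among genes averaging 1 FPKM or more, 25 and 52 with a pseudocount of 0.01, 5 and 26 on the TPM scale and 21 and 27 with a common upper quartile. In the last comparison they were 147 and 131, against 12 and 6, 14 and 28, and 207 and 176. With 1 library left out they were 12 to 65 and 10 to 75, 0 to 2 and 1 to 6, and 30 to 86 and 41 to 88 in these 3 comparisons. The TPM scale moved the median log2 difference of genes averaging 1 FPKM or more from -0.05 to -0.16 between the genotypes at stage 2, and each member stayed lower. The cause of these shifts was not tested. Depth is unknown, so a gene listed at 0 may lie below what a library could detect.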
